A study of Mus musculus with 22 samples.

Results

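The 10 genes described here encode transcription factors of the palatal shelf, the outgrowth of the embryonic face that becomes the roof of the mouth: *Osr1*, *Osr2*, *Msx1*, *Msx2*, *Pax9*, *Tbx22*, *Shox2*, *Barx1*, *Meox2* and *Lhx8*. They were chosen by name for their known roles in the palate, and each has a single entry among the 23286 entries of the deposited table. RNA-seq of poly-A RNA was done on MEPM cells, primary mesenchymal cells grown from the secondary palatal shelves of wild-type C57B/6 mouse embryos at E13.5. All cells, whatever their group, were at passage 2 and had been held overnight in low serum, so none of the groups is an untreated culture in full medium. The 22 samples make up 10 conditions. FGF + PD and PDGF + PD cells received the MEK inhibitor PD325901 at 1 μM before the ligand, and FGF + LY and PDGF + LY cells received the PI3K inhibitor LY294002 at 10 μM before the ligand, each for 1 or 4 hr of ligand and with 2 samples per condition. FGF cells and PDGF cells received ligand alone for 4 hr, with 3 samples per condition. In every condition, FGF stands for FGF1 at 50 ng/mL with heparin at 1 μg/mL and PDGF stands for PDGFA at 30 ng/mL. Replicates came from independent litters.

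The deposited values are FPKM, that is, fragment counts divided by transcript length and by the size of the library, with 1 value per gene and condition that pools the replicates. No spread between replicates can be obtained from them, the reads behind a single value are unknown, and no test was possible. A difference is therefore given as the ratio of 2 FPKM values, and a gene counts as higher or lower if this ratio reached 1.5-fold and it had more than 1 FPKM in at least 1 of the compared conditions. This is a rule of size. It says nothing about whether a difference exceeds the spread between litters. Beside the counts stands the share of all entries above the FPKM minimum that passed the same rule. The labelled cell type was borne out by its markers, since all 8 mesenchyme markers had more than 1 FPKM and their summed level lay between 4711 and 7078 FPKM. The sums were 1.16 to 10.0 FPKM for 8 epithelium markers, 2.66 to 8.23 for 6 endothelium markers, 0.776 to 2.08 for 5 macrophage and blood markers, 12.9 to 27.6 for 8 skeletal muscle markers and 75.8 to 151 for 8 neuron and glia markers. Much of that last sum came from *Stmn2*, a neuronal microtubule gene that reached 76.4 FPKM. PD325901 acted on its pathway in these libraries: all 8 ERK response genes were lower in FGF + PD than in FGF cells, where 11.6% of all entries were. Among them was *Dusp6*, which encodes an ERK phosphatase, at 2.16 against 51.8 FPKM. In FGF + LY against FGF cells, 3 of the 8 were higher and none lower, beside 11.4% and 12.7% of all entries. *Dusp6* had 109 FPKM there. In PDGF + LY against PDGF cells 1 was higher and 1 lower, beside 9.84% and 14.5%. The action of LY294002 on PI3K was not checked by a gene list.

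Palatal shelves grow down beside the tongue, lift above it and fuse at the midline, and the mesenchyme that drives this is patterned by transcription factors from front to back and from side to side. *Msx1* and *Shox2*, both homeobox genes, are known for the anterior palate, where *Msx1* works with *Bmp4*, while *Barx1*, *Meox2* and *Tbx22* are known for the posterior palate. *Osr1* and *Osr2* encode zinc finger proteins expressed in a gradient across the shelf. *Pax9* encodes a paired box protein of palate and tooth mesenchyme, *Lhx8* a LIM homeobox protein, and *Msx2* a relative of *Msx1* best known in the skull and skin. Loss of several of them, such as *Osr2*, *Msx1*, *Pax9*, *Shox2* and *Lhx8*, leads to cleft palate in mice, and mutations of *TBX22* cause an inherited cleft palate in humans.

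The genomic bases just before the starts of 4 members are printed as examples of some of the patterns of values seen in the data. *Shox2* and *Lhx8* had higher values in every inhibitor condition than with either ligand alone. *Meox2* had lower values, with only 1.06-fold between the nearest ones. It exceeded 1 FPKM in only 3 conditions, so its values are no support for a direction. *Barx1* passed the rule of size in no comparison. None of the 4 stands for the separation of PD from LY conditions seen in *Osr1* and *Pax9*. The sequences are from RefSeq on GRCm38.p6, and each window ends at the base before the deposited entry starts, less any bases that GENCODE M21 places in an exon. Capitals mark matches to short motifs on either strand.
Shox2, chr3:66981772-66982021, minus strand: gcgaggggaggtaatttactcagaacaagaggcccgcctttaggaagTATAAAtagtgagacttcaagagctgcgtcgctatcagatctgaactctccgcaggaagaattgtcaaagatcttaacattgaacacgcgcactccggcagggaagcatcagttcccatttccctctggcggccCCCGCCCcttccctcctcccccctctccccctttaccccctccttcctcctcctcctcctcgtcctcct
Lhx8, chr3:154330660-154330810, minus strand: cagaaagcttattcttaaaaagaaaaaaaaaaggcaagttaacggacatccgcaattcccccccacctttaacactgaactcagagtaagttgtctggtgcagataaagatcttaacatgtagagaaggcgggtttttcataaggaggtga
Meox2, chr12:37108290-37108539, plus strand: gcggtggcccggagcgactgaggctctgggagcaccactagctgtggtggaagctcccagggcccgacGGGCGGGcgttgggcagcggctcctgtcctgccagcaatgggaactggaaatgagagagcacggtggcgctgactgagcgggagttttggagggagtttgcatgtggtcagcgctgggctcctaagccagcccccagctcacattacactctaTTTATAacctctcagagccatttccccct
Barx1, chr13:48662786-48662997, plus strand: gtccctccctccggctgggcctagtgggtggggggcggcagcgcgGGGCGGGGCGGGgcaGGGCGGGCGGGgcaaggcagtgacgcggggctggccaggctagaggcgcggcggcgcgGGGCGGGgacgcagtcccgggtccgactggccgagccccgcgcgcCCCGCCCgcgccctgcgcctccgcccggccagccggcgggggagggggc
The capitals in *Shox2* are a TATA box (TATAAA) and a GC box (GGGCGGG), in *Meox2* a GC box and a TATA box, and in *Barx1* a run of GC boxes, several of which overlap each other. The GC content of the printed bases was 55.6% in *Shox2*, 39.7% in *Lhx8*, 62.0% in *Meox2* and 85.4% in *Barx1*, against a median of 52.4% over 32851 RefSeq promoters of 250 bases. Of those promoters, 23.4% held a GC box and 12.4% a TATA box. The letters of a CCAAT box (CCAAT, in 33.8% of all promoters), an E-box (CACGTG, 6.02%), an AP-1 site (TGANTCA, 6.75%), an ETS site (CCGGAAGT, 2.88%), a cAMP response element (TGACGTCA, 1.55%), a FOXO site (GTAAACA, 3.17%) and a CIC site (TGAATGAA or TGAATGGA, 2.07%) were searched on both strands as well, and none of them is in these 4 stretches. A match describes the letters only.

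The 10 genes fell into 3 tiers of expression. *Lhx8*, *Msx1*, *Barx1* and *Osr1* were abundant, with means over the 10 conditions that exceeded those of 96.1%, 95.3%, 94.4% and 93.8% of all entries. *Shox2* and *Pax9* followed at 85.9% and 79.7%. *Osr2*, *Msx2* and *Meox2* were low, at 61.3%, 56.3% and 49.4%, and *Tbx22* never exceeded 0.166 FPKM. The order among the abundant genes depended on the condition. *Osr1* was the highest of the 10 genes in all 4 PD conditions, *Lhx8* in all 4 LY conditions and *Barx1* in both ligand-alone conditions, so the ranges of these genes overlapped and no single order holds for them. *Meox2* was the second lowest and *Tbx22* the lowest gene in all 10 conditions. In all, 8 genes exceeded 1 FPKM everywhere, *Meox2* did so in 3 conditions and *Tbx22* in none.

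**Figure D1:**
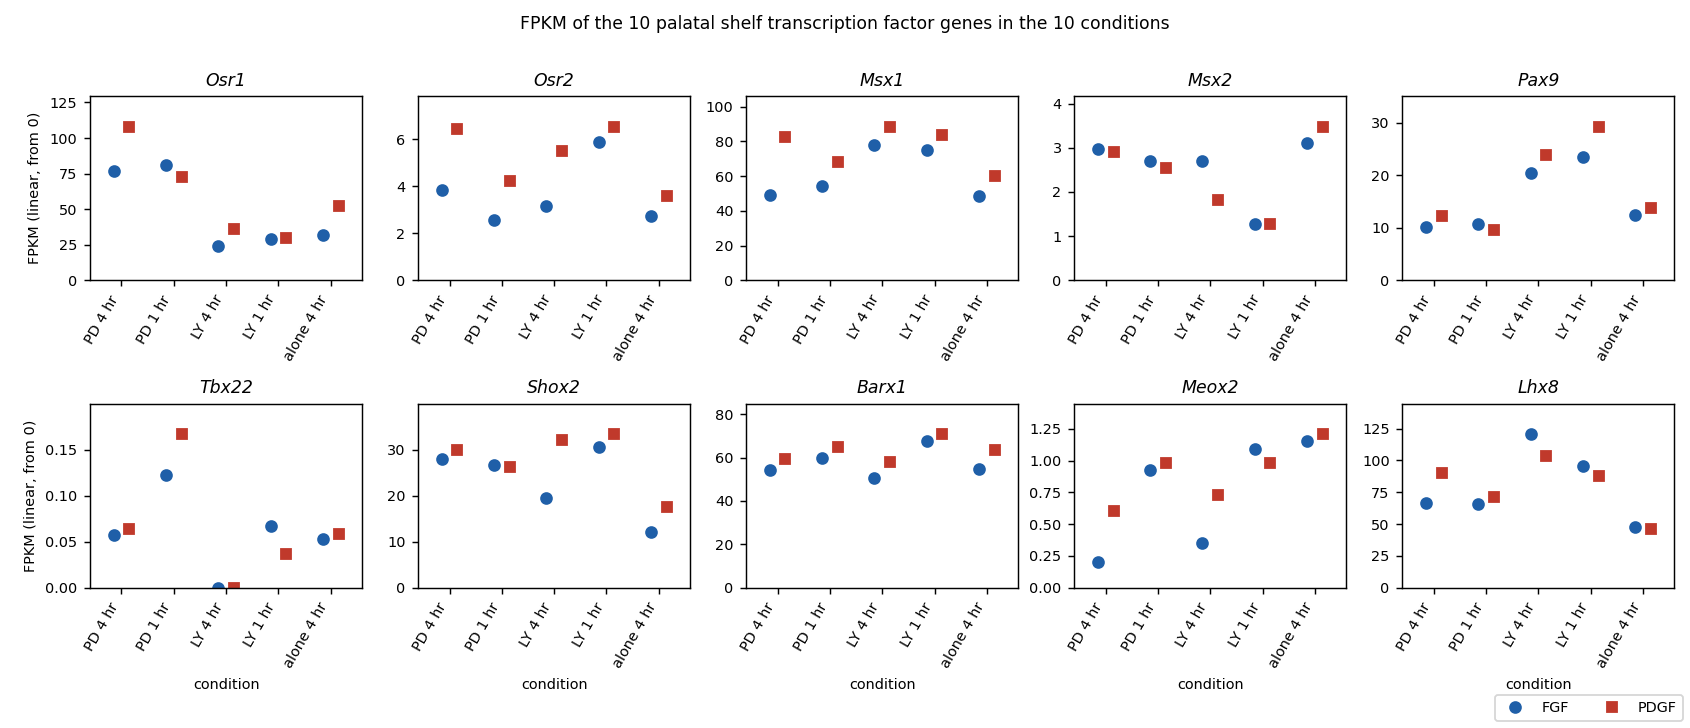
FPKM (linear axis from 0, scaled separately for each gene) of the 10 genes in the 10 conditions, with circles for FGF and squares for PDGF; each point is the pooled value of 2 samples with an inhibitor or 3 samples with ligand alone, and there are no error bars because the files give no replicate values. *Osr1* was high in all 4 PD conditions (72.3 to 108 FPKM) and *Pax9* in all 4 LY conditions (20.3 to 29.2 FPKM), while *Barx1* stayed between 50.5 and 70.8 FPKM.

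The genes also differed in how far they moved across conditions. *Barx1* was the steadiest member above 1 FPKM: its highest value was 1.40-fold its lowest, and among 11479 entries with a mean above 1 FPKM only 14.8% had a smaller range. *Msx1* was intermediate at 1.83-fold, close to the median of 1.79-fold over those entries. *Osr2* spanned 2.56-fold, *Lhx8* 2.60-fold, *Msx2* 2.74-fold, *Shox2* 2.77-fold and *Pax9* 3.03-fold, all above the upper quartile of 2.38-fold. *Osr1* spanned 4.48-fold, which exceeded 93.7% of entries. *Meox2* had the widest range, 6.02-fold, but between 0.200 and 1.21 FPKM. Low entries passed the rule of size more often than high ones: in FGF + PD against FGF cells, 36.3% did among entries with above 1 and under 5 FPKM in the higher condition, and 17.1% among those with 20 FPKM or more.

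The question of the ligand comparison was whether FGF and PDGF leave the same cells with different transcripts. At 4 hr with ligand alone, 1 of the 9 members above the minimum differed by the rule of size, where 11.0% of all entries did (4.37% higher and 6.58% lower in FGF cells). That gene was *Osr1*, with 31.8 FPKM in FGF cells against 51.9 FPKM in PDGF cells, a log2 ratio of -0.71. *Shox2* came nearest among the rest, at 12.0 against 17.5 FPKM, which is 1.46-fold. *Lhx8*, at 47.5 and 46.4 FPKM, was the only one of the 9 with a ratio above 1, and the median log2 ratio of the 9 was -0.22 beside -0.02 over all entries.

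The same comparison can be made a further 4 times, in cells that received an inhibitor, with other libraries on both sides. *Osr2*, a regulator of shelf growth and elevation, was lower with FGF in all 5 pairs. It had 3.81 FPKM in FGF + PD cells against 6.43 in PDGF + PD cells at 4 hr, and 2.55 against 4.24 at 1 hr. It had 3.15 FPKM in FGF + LY cells against 5.48 in PDGF + LY cells at 4 hr, and 5.90 against 6.51 at 1 hr. With ligand alone it had 2.73 against 3.58 FPKM. The 5 log2 ratios ran between -0.80 and -0.14 with a mean of -0.56, a 1.48-fold difference, and 3 of them passed the rule of size, both of those with PD and that with LY at 4 hr.

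*Msx1* and *Barx1* were also lower with FGF in all 5 pairs, by less. *Msx1* had a mean log2 ratio of -0.35 and passed the rule once, in PD cells at 4 hr, with 49.1 FPKM in FGF + PD cells against 82.4 FPKM in PDGF + PD cells. The ratios of *Barx1* lay between -0.22 and -0.07 and its 2 ligands were never more than 1.16-fold apart. Thus 3 of 8 members had 1 sign in all 5 pairs, where 15.9% of 10987 entries did, and none of the 8 also reached 1.5-fold as a geometric mean, where 2.22% of entries did. The other 5 members above 1 FPKM had at least 1 pair of the opposite sign. *Osr1* was lower with FGF in 4 of 5 pairs and *Shox2* in 4 of 5. In LY cells at 4 hr *Osr1* had 24.1 FPKM with FGF against 36.2 with PDGF, and *Shox2* 19.5 against 32.2. *Msx2* went the other way in that pair, with 2.71 FPKM in FGF + LY cells against 1.81 in PDGF + LY cells, just under 1.5-fold.

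At 1 hr the ligands differed little in these genes. Only *Osr2* passed the rule in PD cells (1 of 8 members, against 5.41% of all entries, 3.76% higher and 1.65% lower) and no member did in LY cells (0 of 9, against 6.90% of entries, 4.14% higher and 2.76% lower). *Osr2* was low there, and 15.4% of entries with above 1 and under 5 FPKM in the higher condition passed in that PD comparison. With a pseudocount of 1 FPKM it did not pass. At 4 hr *Osr2* and *Msx1* passed the rule in PD cells (2 of 8, against 19.4% of entries, 6.20% higher and 13.2% lower) and *Osr1*, *Osr2* and *Shox2* in LY cells (3 of 8, against 18.5% of entries, 8.95% higher and 9.51% lower). Every one of these 7 ligand differences, the ligand-alone pair included, was a lower value with FGF, and none reached 2-fold. In LY cells at 4 hr the members behind the count depended on the scaling. *Osr1* lay close to the rule, at a log2 ratio of -0.59, and *Msx2* was just short of it on the other side, at 2.71 FPKM in FGF + LY cells against 1.81 in PDGF + LY cells. Rescaled by the median ratio of all entries, *Osr1* no longer passed, at -0.58, and *Msx2* passed as higher with FGF, which made 1 higher and 2 lower.

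**Figure D2:**
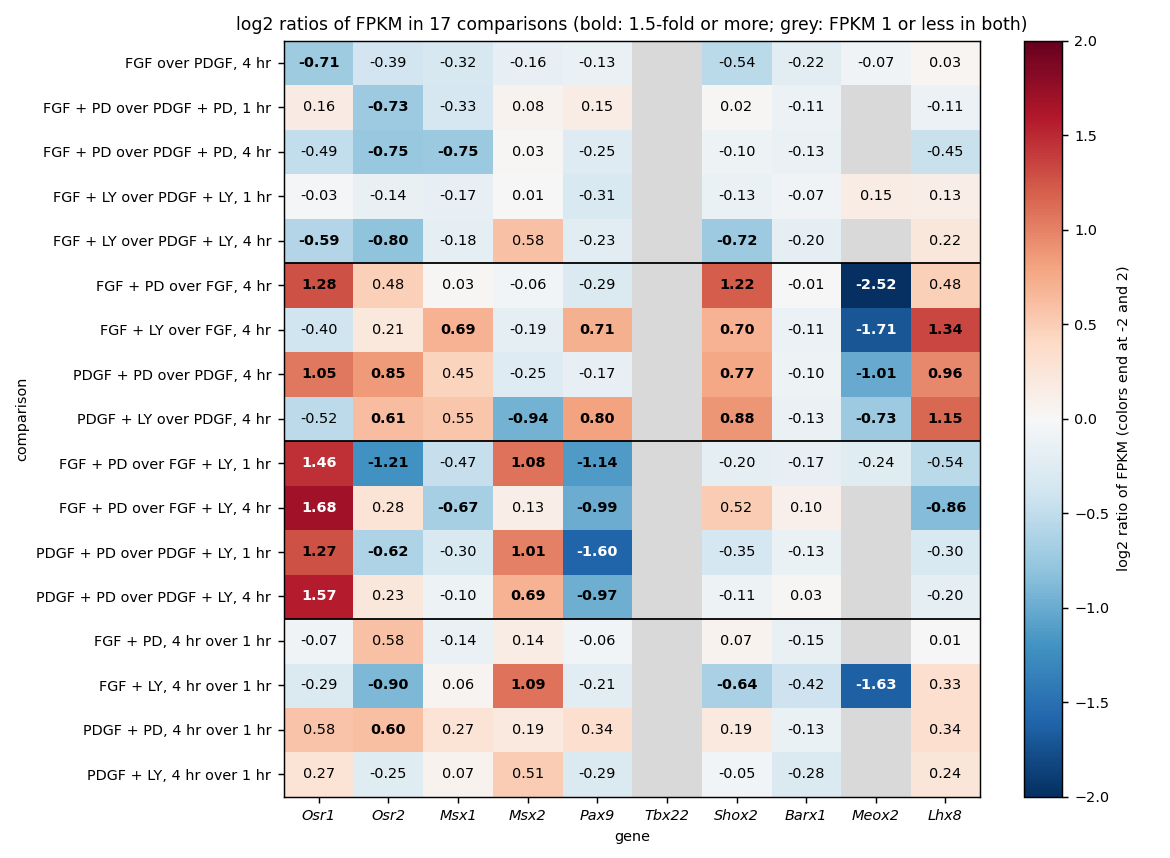
Log2 ratios of FPKM of the 10 genes (columns) in 17 comparisons (rows: FGF over PDGF, inhibitor over ligand alone, PD over LY, and 4 hr over 1 hr, from top to bottom), with red for higher and blue for lower in the condition named first. Bold values reached 1.5-fold and grey cells had 1 FPKM or less in both conditions; *Osr1* and *Pax9* have opposite colors in the 4 rows of PD over LY, and *Barx1* has no bold value.

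With the MEK inhibitor present, *Osr1* and *Shox2* were higher with either ligand. *Osr1* had 76.9 FPKM in FGF + PD cells against 31.8 in FGF cells, 2.42-fold, and 108 FPKM in PDGF + PD cells against 51.9 in PDGF cells, 2.08-fold. *Shox2* had 27.9 against 12.0 FPKM with FGF, 2.32-fold, and 29.8 against 17.5 FPKM with PDGF, 1.71-fold. With PDGF, *Lhx8* was 1.94-fold higher in PDGF + PD cells, at 90.2 against 46.4 FPKM, and *Osr2* 1.80-fold higher, at 6.43 against 3.58 FPKM. With FGF the corresponding ratios of *Lhx8* and *Osr2* were both 1.40-fold, under the rule, and whether they differ between the ligands could not be tested. With *Meox2* included, 2 of 9 members were higher and 1 lower in FGF + PD than in FGF cells, where 11.5% of all entries were higher and 11.6% lower (23.1% in all). In PDGF + PD against PDGF cells 4 were higher and 1 lower, where 11.9% of entries were higher and 9.57% lower (21.5% in all). The 1 lower gene with either ligand was *Meox2*, which passed the FPKM minimum only through its ligand-alone values, so these calls are no support for a direction. *Msx1*, *Msx2*, *Pax9* and *Barx1* passed the rule with neither ligand.

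With the PI3K inhibitor present, *Lhx8*, *Shox2* and *Pax9* were higher with either ligand. *Lhx8* had 120.5 FPKM in FGF + LY cells against 47.5 in FGF cells, 2.54-fold, and 103 FPKM in PDGF + LY cells against 46.4 in PDGF cells, 2.22-fold. *Pax9* had 20.3 against 12.5 FPKM with FGF, 1.63-fold, and 23.9 against 13.7 FPKM with PDGF, 1.75-fold. *Shox2* had 19.5 against 12.0 FPKM with FGF, 1.63-fold, and 32.2 against 17.5 FPKM with PDGF, 1.84-fold. These 3 genes thus lay above both ligand-alone values in both LY conditions at 4 hr, and so did *Msx1*. *Msx1* had 78.0 against 48.3 FPKM with FGF, 1.62-fold, and 88.2 against 60.2 FPKM with PDGF, 1.47-fold, so its 2 ratios fell on either side of the rule. *Osr2* passed it with PDGF, at 5.48 against 3.58 FPKM.

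*Osr1* moved the other way with LY, at 24.1 against 31.8 FPKM with FGF and 36.2 against 51.9 FPKM with PDGF, log2 ratios of -0.40 and -0.52 that stayed under the rule. *Msx2* was lower in PDGF + LY than in PDGF cells, at 1.81 against 3.47 FPKM. In all, 4 of 9 members were higher and 1 lower in FGF + LY than in FGF cells, where 11.4% of all entries were higher and 12.7% lower (24.0% in all). In PDGF + LY against PDGF cells 4 were higher and 2 lower, where 9.84% of entries were higher and 14.5% lower (24.4% in all). *Meox2* was the 1 lower gene with FGF and 1 of the 2 lower genes with PDGF. It passed the FPKM minimum only through its ligand-alone values, so these calls are no support for a direction, and the medians that follow include it. The median log2 ratio of the 9 members was 0.03 with PD and 0.21 with LY in FGF cells, and 0.45 with PD and 0.55 with LY in PDGF cells, beside medians over all entries of less than 0.03 in size. The PD and LY ratios of a ligand share its ligand-alone libraries, so they are not independent of each other.

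*Lhx8* and *Shox2* had lower values in both ligand-alone conditions than in any of the 8 inhibitor conditions, 1 hr included. For *Lhx8* the gap between the nearest values was 1.39-fold, with the inhibitor conditions at 65.9 FPKM or more, and for *Shox2* it was 1.12-fold, with the inhibitor conditions at 19.5 FPKM or more. *Msx2* and *Meox2* had higher values in both ligand-alone conditions than in any inhibitor condition, with gaps of only 1.04-fold and 1.06-fold. Over 12298 entries, 9.25% lay apart on the low side in this way and 11.7% on the high side. The ligand-alone conditions also differ from the rest in their number of samples, and an effect of any inhibitor and a difference between sets of libraries cannot be told apart in this pattern.

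The 2 inhibitors can be set against each other in 4 pairs, matched for ligand and time, and this comparison needs no ligand-alone library. *Osr1* was high with PD and low with LY throughout. Its PD values were 80.8 FPKM with FGF and 72.3 with PDGF at 1 hr, and 76.9 with FGF and 108 with PDGF at 4 hr. Its LY values were 29.3 FPKM with FGF and 30.0 with PDGF at 1 hr, and 24.1 with FGF and 36.2 with PDGF at 4 hr. The 4 ratios were between 2.41-fold and 3.20-fold, with a geometric mean of 2.82-fold, and the lowest PD value was above the highest LY value.

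*Pax9* was the mirror image. Its PD values were 10.7 FPKM with FGF and 9.64 with PDGF at 1 hr, and 10.2 with FGF and 12.2 with PDGF at 4 hr. Its LY values were 23.5 FPKM with FGF and 29.2 with PDGF at 1 hr, and 20.3 with FGF and 23.9 with PDGF at 4 hr. Each PD value was thus below each LY value, and the geometric mean difference was 2.26-fold. All 4 PD conditions lay above all 4 LY conditions in 11.3% of 12298 entries and below them in 10.9%, so a separation of this kind was common among all genes.

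*Msx2* was higher with PD in all 4 pairs, by 1.66-fold as a geometric mean, most of it at 1 hr. It had 2.69 FPKM in FGF + PD against 1.27 in FGF + LY cells and 2.55 FPKM in PDGF + PD against 1.27 in PDGF + LY cells at that time, and with PDGF at 4 hr it passed the rule again, at 2.92 against 1.81 FPKM. *Lhx8* and *Msx1* were lower with PD in all 4 pairs, by 1.39-fold and 1.30-fold as geometric means, and passed the rule only with FGF at 4 hr. There, *Lhx8* had 66.2 FPKM in FGF + PD against 120.5 in FGF + LY cells and *Msx1* 49.1 against 78.0. *Osr2* changed sign with time. At 1 hr it had 2.55 FPKM in FGF + PD against 5.90 in FGF + LY cells and 4.24 FPKM in PDGF + PD against 6.51 in PDGF + LY cells. At 4 hr its values in PD cells were the higher ones, by 1.21-fold with FGF and 1.17-fold with PDGF, both under the rule. *Shox2* and *Barx1* passed the rule in none of the 4 pairs.

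**Figure D3:**
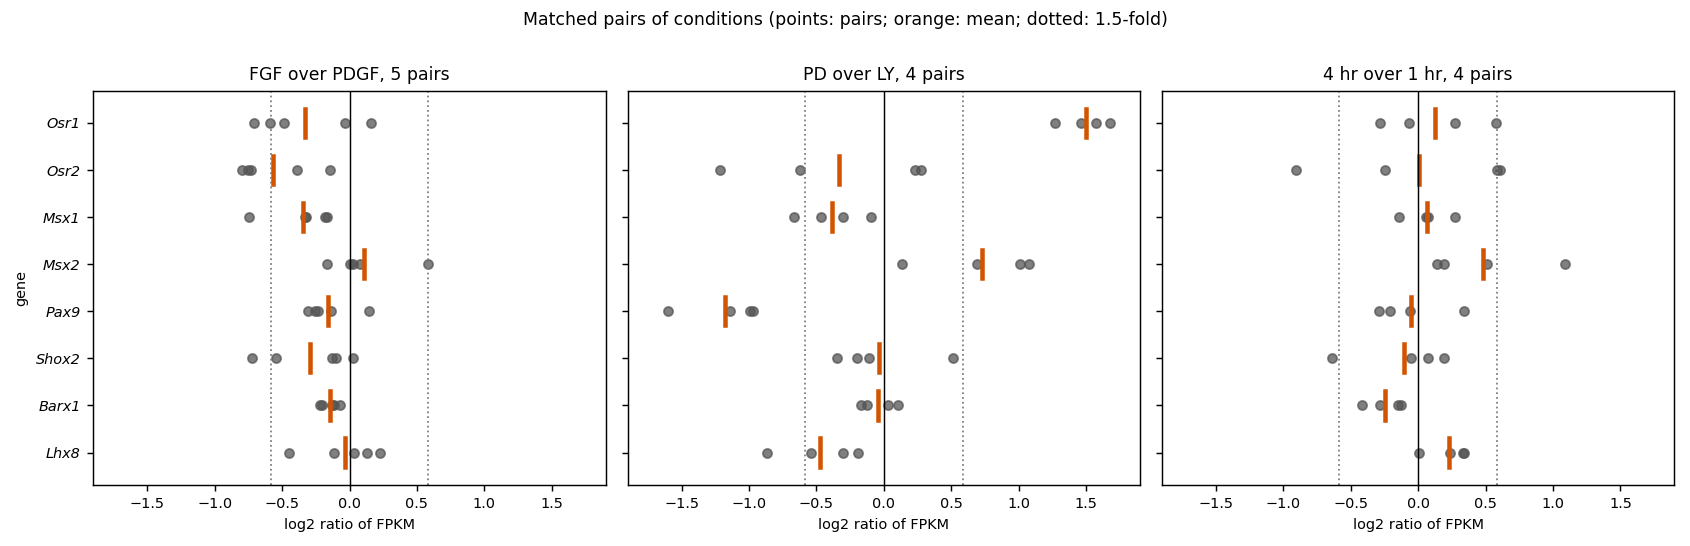
Log2 ratios of FPKM (horizontal axis) in the matched pairs of conditions for the 8 genes above 1 FPKM in every condition (vertical axis), with a grey point for each pair, an orange bar for the mean of the pairs and dotted lines at 1.5-fold. The 4 PD over LY points of *Osr1* lie between 1.27 and 1.68 and those of *Pax9* between -1.60 and -0.97, while the 5 FGF over PDGF points of *Osr2* lie between -0.80 and -0.14.

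Of 8 members, 5 kept 1 sign in the 4 PD and LY pairs, where 45.4% of 11225 entries did, and 3 of them (*Osr1*, *Msx2* and *Pax9*) also reached 1.5-fold as a geometric mean, where 11.5% of entries did. *Msx2*, which had at most 3.47 FPKM, dropped out and left 2 under a 2-fold rule, with a pseudocount of 1 FPKM or with a minimum of 5 FPKM. With FGF at 1 hr 2 of 9 members were higher with PD and 2 lower, where 12.0% of all entries were higher and 7.78% lower (19.8% in all). With FGF at 4 hr 1 of 8 was higher and 3 lower, beside 12.6% and 11.6% of entries (24.2% in all). With PDGF at 1 hr 2 of 8 were higher and 2 lower, beside 8.86% and 6.21% (15.1% in all). With PDGF at 4 hr 2 of 8 were higher and 1 lower, beside 12.8% and 6.97% (19.7% in all). Marker lists also separated the inhibitors. The summed level of the 8 neuron and glia markers was 98.8 to 151 FPKM in the PD conditions against 75.8 to 82.6 in the LY conditions, with *Tubb3*, a neuronal tubulin gene, at 31.1 to 73.2 against 9.66 to 13.7 FPKM. *Stmn2*, the highest gene of that list, overlapped, at 60.5 to 76.4 FPKM with PD against 62.2 to 69.3 with LY. The 6 endothelium markers summed to 5.50 to 8.23 FPKM with PD against 2.66 to 4.42 with LY. Of these, *Kdr*, a VEGF receptor, lay apart at 3.02 to 4.39 against 0.770 to 0.880 FPKM, whereas *Tek*, an angiopoietin receptor, overlapped at 1.08 to 1.70 against 0.598 to 1.52 FPKM, and so did *Egfl7*, an endothelial secreted factor. The 8 mesenchyme markers summed to 4711 to 5526 FPKM with PD against 6485 to 7078 with LY. Of these, *Vim*, *Col1a2*, *Col3a1* and *Dcn* lay apart. *Prrx1* overlapped, at 273 to 291 against 257 to 301 FPKM, and so did *Twist1*, *Pdgfra* and *Pdgfrb*. The sums of the 8 skeletal muscle markers overlapped, at 17.6 to 27.6 against 12.9 to 20.6 FPKM. Their part in the results of these genes was not tested.

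**Figure D4:**
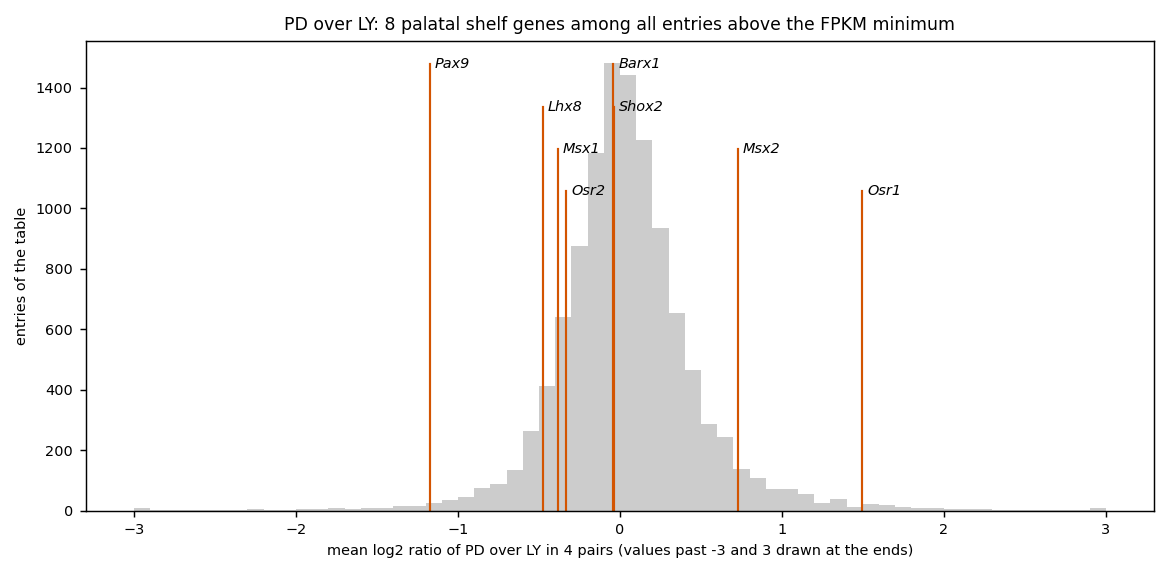
Mean log2 ratio of PD over LY in the 4 matched pairs (horizontal axis) over 11225 entries above the FPKM minimum in every pair (grey bars, number of entries on the vertical axis), with orange lines at the values of 8 palatal shelf genes. *Osr1*, with a geometric mean of 2.82-fold, and *Pax9*, at -1.18, lie far out on opposite sides, and *Shox2* and *Barx1*, both at -0.04, lie near the median of 0.02.

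Between 1 and 4 hr of ligand, most members moved little. No member passed the rule in FGF + PD cells (0 of 8, against 14.4% of all entries, 4.44% higher and 9.92% lower) or in PDGF + LY cells (0 of 8, against 10.4% of entries, 4.91% higher and 5.51% lower). In PDGF + PD cells *Osr2* was higher at 4 hr, at 6.43 against 4.24 FPKM (1 of 8, against 11.9% of entries, 8.27% higher and 3.63% lower), and *Osr1*, at 108 against 72.3 FPKM, was just short of the rule at 1.49-fold. FGF + LY cells held most of the change, but so they did over all entries, whose share past the rule was also largest in these cells. There, *Osr2* was lower at 4 hr than at 1 hr, at 3.15 against 5.90 FPKM, *Shox2* was lower, at 19.5 against 30.5 FPKM, and *Msx2* was higher, at 2.71 against 1.27 FPKM. This made 1 higher and 2 lower of 8, where 11.4% of all entries were higher and 12.2% lower (23.6% in all). *Meox2*, at 0.351 FPKM at 4 hr against 1.09 at 1 hr, passed the minimum there only through its 1 hr value and is given as a value. *Msx2* and *Lhx8* were higher and *Barx1* was lower at 4 hr in all 4 pairs, by 1.40-fold, 1.17-fold and 1.19-fold as geometric means. That is 3 of 8 members with 1 sign, where 17.5% of 11208 entries had 1 sign, and none at 1.5-fold, where 2.66% were.

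*Meox2* and *Tbx22*, both known from the posterior palate, were scarce. *Meox2* was highest with ligand alone, at 1.15 FPKM with FGF and 1.21 with PDGF. At 4 hr it had 0.200 FPKM in FGF + PD cells, 0.351 in FGF + LY cells, 0.601 in PDGF + PD cells and 0.728 in PDGF + LY cells. It was thus lower with each inhibitor, at log2 ratios of -2.52, -1.71, -1.01 and -0.73, but it passed the FPKM minimum there only through the ligand-alone value, so that these 4 differences are given as values and not as support for a direction. At 1 hr it lay between 0.923 and 1.09 FPKM in the 4 inhibitor conditions, and so was lower at 4 hr than at 1 hr in all 4 of them. *Tbx22* had 0.0363 to 0.166 FPKM where it was detected and was listed at 0 in both LY conditions at 4 hr, and no ratio is given for it.

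The closely related pairs among the 10 members did not move together. *Osr1* and *Osr2*, which encode near relatives, had a Pearson r of -0.03 over the 10 conditions on the log2(FPKM + 1) scale, and *Msx1* and *Msx2* one of -0.61. The highest r among the 8 members above 1 FPKM was that of *Msx1* with *Lhx8*, 0.81, followed by *Osr2* with *Msx1* at 0.76 and *Osr2* with *Shox2* at 0.72. The lowest were *Msx2* with *Pax9*, -0.80, and *Osr1* with *Pax9*, -0.78. These are descriptions over 10 pooled values, which share libraries for every gene, and carry no p-value.

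Among other genes with a mean of at least 5 FPKM, the profile most like that of *Pax9* was *Txnip*, which encodes a thioredoxin-binding protein, with an r of 0.99 and values between 7.00 and 109 FPKM. Next were *H3c14*, one of many near-identical histone H3 genes, and *Lgals3bp*, both at 0.96. *Osr1* was closest to *Trmt2a*, *Armcx4* and *Arhgef10*, all at 0.96, *Lhx8* to *Slc44a1* (0.97), *Napg* (0.96) and *Gata2* (0.96), and *Shox2* to *Tom1l2* (0.96), *Grina* (0.96) and *Mxd4* (0.95). *Msx1* was closest to *Ing4* (0.96), *Prkra* (0.95) and *Sesn3* (0.95), and *Msx2* to *Ankrd52* (0.96), *Pelo* (0.96) and *Fbxw7* (0.95). *Osr2* was closest to *Il11ra1* (0.95), *Gstm4* (0.94) and *Narf* (0.92), and *Barx1* to *Id3* (0.95), a BMP-responsive inhibitor of helix-loop-helix proteins, *Tap1* (0.94) and *Pcca* (0.93). Each of these genes was picked for its r, over 10 points.

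Other genes of the palate give the setting. Of 16 other transcription factors of palate formation, 13 were above 1 FPKM, and none was higher with an inhibitor than with the ligand alone. In FGF + PD against FGF cells 5 of 13 were lower (beside 11.6% of all entries), in FGF + LY against FGF cells 2 (12.7%), in PDGF + PD against PDGF cells 4 (9.57%) and in PDGF + LY against PDGF cells 3 (14.5%), with median log2 ratios of -0.11, -0.15, -0.46 and -0.41. *Sox9*, a cartilage regulator, had 4.12 FPKM in FGF + PD cells against 12.3 in FGF cells, and *Snai1*, a regulator of epithelial-mesenchymal transition, had 9.58 FPKM in PDGF + LY cells against 18.9 in PDGF cells. *Hic1*, a transcriptional repressor, had 4.07 FPKM in PDGF + PD cells against 7.90 in PDGF cells.

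Of 12 close relatives of the members, 7 were above 1 FPKM. In FGF against PDGF cells 1 was higher and none lower, beside 4.37% and 6.58% of all entries. It was *Meox1*, the paralog of *Meox2*, with 3.43 against 1.10 FPKM. *Meox1* had 0.503 FPKM in FGF + PD cells, against 3.43 in FGF cells. It passed the minimum in that comparison only through its ligand-alone value, so this is no support for a direction. *Tbx18*, a T-box gene, had 3.85 FPKM in FGF + PD against 1.85 in FGF cells, and *Lhx9*, a LIM homeobox gene, 6.04 against 10.0. *Lhx6*, which acts beside *Lhx8* in the jaw, had 9.53 FPKM in PDGF + LY against 13.6 in PDGF cells, under the rule. The 5 medians of this list, over the ligand-alone pair and the 4 inhibitor comparisons, lay between -0.13 and 0.14.

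Of 14 BMP and Hedgehog genes, which signal to *Msx1*, *Osr2* and other members in the shelf, 11 were above 1 FPKM in FGF against PDGF cells, and 3 of them were lower and none higher, beside 6.58% and 4.37% of all entries. *Smad6*, an inhibitor of BMP signaling, had 2.66 FPKM in FGF against 7.12 in PDGF cells, and *Smad7*, a related inhibitor, had 4.52 FPKM in PDGF + PD against 8.72 in PDGF cells. *Gli2*, a transcription factor of the Hedgehog pathway, had 1.57 FPKM in FGF + LY against 3.06 in FGF cells, and *Bmpr1b*, a BMP receptor, 0.660 against 1.44. *Bmpr1b* passed the minimum there only through its ligand-alone value and is given as a value. Of 15 FGF, Wnt and other growth signals, all were above 1 FPKM. In FGF + LY against FGF cells 3 were higher and 2 lower, beside 11.4% and 12.7% of all entries, and *Tgfbr2*, a TGF-β receptor, had 129 against 59.5 FPKM. *Fgf7*, a mesenchymal growth factor for epithelium, had 23.7 FPKM in FGF + PD against 50.0 in FGF cells, and *Pdgfra*, the receptor for PDGFA, 9.47 FPKM in PDGF + PD against 3.30 in PDGF cells. 

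The entries lie at these positions on mm10, as the deposited table gives them. *Osr1* is at chr12:9574442-9581500, *Pax9* at chr12:56691693-56712824 and *Meox2* at chr12:37108540-37179534. *Shox2* is at chr3:66971723-66981771 and *Lhx8* at chr3:154306288-154330560. *Msx2* is at chr13:53466881-53472780 and *Barx1* at chr13:48663036-48666507. *Msx1* is at chr5:37820491-37824585, *Osr2* at chr15:35296098-35303305 and *Tbx22* at chrX:107667964-107688980. On the opposite strand, exons of *Slc25a21* share 189 bases with those of *Pax9* (3.74% of the exonic length of *Pax9*) and exons of *Rsrc1* share 153 bases with those of *Shox2* (4.62%) in GENCODE M21. Whether the library kit kept the strand is not stated, so reads of the shared bases cannot be told apart between the 2 genes of each pair. At most 4.45% of a member's 31-base words occur in transcripts of other genes, in *Pax9*.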

How the data were processed

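RNA-seq was done on 22 samples of MEPM cells in 10 conditions. Per the submitters' notes and the methods, the authors used CASAVA for base calls, TopHat for mapping to mm10 and Cuffdiff for FPKM, in versions not given in the sources used here. The deposited table holds 1 FPKM value per entry and condition, which the authors pooled over replicates, so neither depth nor spread per sample is known and no precision could be calculated. Of 23286 entries, 22749 carry 1 gene symbol. Another 3 columns, which belong to samples outside these 22, were not used.

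Ratios of FPKM were calculated without a pseudocount or further scaling in 17 comparisons, with a rule of 1.5-fold and more than 1 FPKM in either condition. The counting was tested on simulated data with 3-fold changes in entries above 5 FPKM. That setting does not cover ratios near 1.5-fold or entries near the minimum. Genes were named as follows: all members, up to 4 genes per list with the largest log2 ratio in the 4 hr comparisons, and the 3 genes with the highest Pearson r of log2(FPKM + 1) with each member. Values of some genes that this rule names are left out here. Of 116 listed genes in 12 lists, 115 had an entry. The members and lists were chosen with earlier results of these data known. Alternatives were a 2-fold rule, a pseudocount of 1 FPKM, a minimum of 5 FPKM, no minimum and rescaling by the median ratio. Promoters were matched by symbol in the RefSeq table (GRCm38.p6), which gave 8 of 10 members, without *Osr1* and *Osr2*, and exons were those of GENCODE M21. All steps ran in Python (3.11.15), with NumPy 2.4.6 for arithmetic and the correlations with other genes, pandas 2.3.3 for tables and matplotlib 3.10.9 for plots. SciPy 1.17.1 was also loaded.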

Additional observations from a re-analysis of the deposited data

How the results depend on the processing

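The counts in this section include *Meox2* also where it passed the FPKM minimum through only 1 of the compared conditions. Counts of palatal shelf genes past the rule of size kept their number under rescaling of each comparison by its median ratio, in all 20 counts, and no gene that passed the rule changed direction under any alternative. The members changed in 1 of them: FGF + LY against PDGF + LY cells at 4 hr then had 1 higher (*Msx2*) and 2 lower in place of 3 lower, without *Osr1*. A 2-fold rule lowered most counts, 11 of them by over 1.5 times. In FGF against PDGF cells it left 0 genes in place of 1. In FGF + PD against PDGF + PD cells it left 0 in place of 1 at 1 hr and 0 in place of 2 at 4 hr, and in FGF + LY against PDGF + LY cells 0 in place of 3 at 4 hr. It left 2 in place of 5 in FGF + LY against FGF cells, 2 in place of 5 in PDGF + PD against PDGF cells and 1 in place of 6 in PDGF + LY against PDGF cells. At 4 hr it left 1 in place of 4 in FGF + PD against FGF + LY cells and 1 in place of 3 in PDGF + PD against PDGF + LY cells, where it left 3 in place of 4 at 1 hr. Over the 4 PD and LY pairs it left 2 in place of 3, as did the pseudocount and the minimum of 5 FPKM. Between 4 and 1 hr it left 2 in place of 4 in FGF + LY cells and 0 in place of 1 in PDGF + PD cells. A pseudocount of 1 FPKM left 0 in place of 1 in FGF + PD against PDGF + PD cells at 1 hr and 0 in place of 1 between 4 and 1 hr in PDGF + PD cells. It also left 2 in place of 3 in FGF + LY against PDGF + LY cells at 4 hr. A minimum of 5 FPKM left 0 in place of 1 in FGF + PD against PDGF + PD cells at 1 hr, and 2 in place of 4 between 4 and 1 hr in FGF + LY cells. It also left 2 in place of 3 in FGF + PD against FGF cells, 4 in place of 5 in FGF + LY against FGF cells and 3 in place of 4 in FGF + PD against FGF + LY cells at 1 hr. Both the pseudocount and this minimum left 4 in place of 5 in PDGF + PD against PDGF cells, 4 in place of 6 in PDGF + LY against PDGF cells, and 3 in place of 4 at 1 hr and 2 in place of 3 at 4 hr in PDGF + PD against PDGF + LY cells. Without a minimum, which admits *Tbx22* and all values of *Meox2*, the count was 1 in place of 0 in FGF + LY against PDGF + LY cells at 1 hr, 2 in place of 0 between 4 and 1 hr in FGF + PD cells and 3 in place of 1 in PDGF + PD cells, and 1 in place of 0 over the 4 pairs of 4 and 1 hr. Of 46 single ratios past the rule, 19 also reached 2-fold, and 8 no longer passed with the pseudocount. No paired analysis was possible because the deposited columns pool the replicates and carry no replicate number, and for the same reason no replicate could be left out. Summing the entries of a symbol was not run, since each member has a single entry.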

Other observations

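The 17 comparisons divided the 10 genes unevenly. *Osr2* passed the rule of size in 9 of them (higher in 3, lower in 6) and *Osr1* in 8 (higher in 6, lower in 2), while *Pax9* and *Shox2* passed it in 6 each, *Msx2* and *Meox2* in 5 each, *Lhx8* in 4 and *Msx1* in 3. *Barx1* and *Tbx22* passed it in none, *Barx1* with more than 50 FPKM throughout and *Tbx22* below the FPKM minimum throughout. Several comparisons share libraries, so these numbers are not independent of each other. In all 5 passes of *Meox2* the FPKM minimum was met only through the higher condition. Those passes are therefore given as values and not as support for a direction.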
